A study of Mus musculus with 10 samples.

Results

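Interferon-stimulated genes are the genes that cells switch on when an interferon binds its receptor, and 35 of them were followed here through 5 tissues of young and aged mice. The array annotation named a single gene for 55 probe sets of 33 of these genes, out of 45101 probe sets and 18194 genes in all. Ifi44 was not matched to a probe set, and Isg15 was matched to 1 that also names Gm9706, so no value is given for either. RNA came from jejunum, ileum, distal colon, liver and spleen of male ICR mice, an outbred stock fed the AIN-93 diet and housed 1 to a cage under specific-pathogen-free conditions. Each tissue gave 1 pool of RNA from 6 mice aged 4 months and 1 from 9 mice aged 28 months, so 10 Affymetrix arrays were hybridised, and a value is a pool average. The young mice were bought when 2 months old, the old ones when 8 months old. No genotype or treatment is named in the array titles. The protocol text of the 3 intestinal arrays of 28 months, however, describes 2 diets, 9 control mice and 10 mice given LB81 yogurt. It does not say which diet these arrays came from, although the number of mice in the series design, 9, is that of the control diet. The liver and spleen arrays of 28 months carry the text of the control diet alone.

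Type I interferons act through the receptor pair Ifnar1 and Ifnar2 and type III interferons through Ifnlr1 and Il10rb, and both lead to a transcription factor complex containing Stat2 and Irf9 that binds a short element in the promoters of its targets. The targets include sensors of viral RNA, proteins that block viral translation or budding, and brakes on the pathway itself. In the gut, a low level of this programme is kept up by the resident microbes.

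That element shows in the promoters of several members whose ratios differed between tissues, which are printed here to show what the genes have in common in sequence. RefSeq promoters (build GRCm38.p6, 250 bases before to 50 bases after the start) were found for 26 of the 35 genes. The core of the element, GAAA followed by 2 bases of any kind and a second GAAA, or TTTC, 2 bases and TTTC on the other strand, was searched as exact letters, and overlapping matches were counted apart. It was present in 12 of the 26 genes, or 46.2%, against 3.99% of the 27025 genes with a promoter in the table. Matches are in capitals, and all 6 stretches lie before the start of transcription. Ifit1 (chr19:34640639-34640888, plus strand), Ifit3 (chr19:34583365-34583424, plus), Oas1a (chr5:120907526-120907585, minus), Oas3 (chr5:120777700-120777759, minus), Rsad2 (chr12:26456538-26456597, minus) and Gbp2 (chr3:142620579-142620638, plus) were chosen as members of several roles, with Gbp2 as a member that did not share the pattern of the others.
Ifit1: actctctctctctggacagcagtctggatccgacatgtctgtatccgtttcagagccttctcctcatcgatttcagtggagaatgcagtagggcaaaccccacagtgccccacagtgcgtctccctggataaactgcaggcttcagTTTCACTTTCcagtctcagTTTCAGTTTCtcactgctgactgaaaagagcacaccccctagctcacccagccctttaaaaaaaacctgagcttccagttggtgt
Ifit3: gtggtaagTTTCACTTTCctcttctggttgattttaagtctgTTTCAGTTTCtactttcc
Oas1a: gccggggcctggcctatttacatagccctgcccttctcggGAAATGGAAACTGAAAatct
Oas3: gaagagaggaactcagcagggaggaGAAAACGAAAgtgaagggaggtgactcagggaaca
Rsad2: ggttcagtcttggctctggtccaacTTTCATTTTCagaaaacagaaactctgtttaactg
Gbp2: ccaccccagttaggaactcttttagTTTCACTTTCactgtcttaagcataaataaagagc
Ifit1 and Ifit3 each carried 2 matches on the antisense strand, and the 2 matches of Oas1a overlapped. A match is a string of letters and was not tested as a binding site. Among members above the floor in all 5 tissues, the 10 with a match and the 12 with a promoter but no match had median differences between small intestine and the other tissues of -0.71 and -0.84 on the log2 scale.

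Signals are in arbitrary units after each array was scaled to a trimmed mean of 500, and signals under a floor of 111 units, the median of all signals, were raised to it. Every ratio is the signal of 28 months over that of 4, given as log2 or as a fold, and is a bound ("at least") where 1 age lay under the floor. A gene was measured in a tissue if either age was above the floor, was read by its brightest probe set, and was called lower or higher from 1.5-fold. With 1 array per tissue and age no ratio had a replicate check, and precision is limited by that number. Probe sets of the same gene gave an SD of their log2 ratios whose median over genes was 0.113 to 0.143 over the 5 tissues, and 0.136 to 0.266 among members with several probe sets. Liver and spleen carried their defining markers. The summed signal of 8 listed hepatocyte genes, 7 of them on the array, was 257088 and 252920.0 units in liver at 4 and 28 months. That of 10 listed B cell genes, 9 on the array, was 51588 and 41712 units in spleen. In distal colon 8 listed markers summed to 47589 and 39209 units. Of 7 measured there, 3 were higher (2.57% of all genes) and 1 was lower (2.35%), Car1, at 22226.5 and 6485 units. Of 5 measured ileum markers, 3 were lower in distal colon and 1 was higher. Of 7 measured absorptive enterocyte markers, 2 were lower there and 0 higher. The part of sampling position in the distal colon ratios was not tested. The 4-month ileum carried its 6 ileum markers, at a summed 34350.5 units against 5248 in jejunum, but also 9 proximal small intestine markers at 104667 units, against 4474 at 28 months and 117223 and 88557 in jejunum at the 2 ages.

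The members were mostly lower with age in the small intestine and mostly higher in distal colon, liver and spleen. In jejunum 26 of 33 measured members had ratios below 0 (44.1% of all 12324 genes measured) and 7 above (55.9%), with a median of -0.18. In ileum 24 lay below 0 (46.1% of 12504 genes) and 9 above (53.9%), with a median of -0.16. In distal colon 22 of 31 were above 0 (55.4% of 12360 genes) and 9 below (44.6%), with a median of 0.25. In spleen 29 of 33 were above 0 (51.9% of 11925 genes) and 4 below (48.1%), with a median of 0.34. In liver 29 of 32 were above 0 (46.7% of 12001 genes) and 3 below (53.3%), with a median of 0.90. The median over all genes lay between -0.01 and 0.03 in the 5 tissues. Of 30 members measured in all 5 tissues, 18 lay below 0 in both small intestinal segments (26.3% of 10317 genes), 21 lay above 0 in the other 3 tissues (13.7%), and 14 did both (3.1%). In 21 of the 30, both small intestinal ratios lay under each of the other 3 (12.2% of genes), and in 0 of the 30 both lay over them (17.1% of genes). The liver ratio was the highest of the 5 in 21 of 30 (14.6% of genes).

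**Figure D1:**
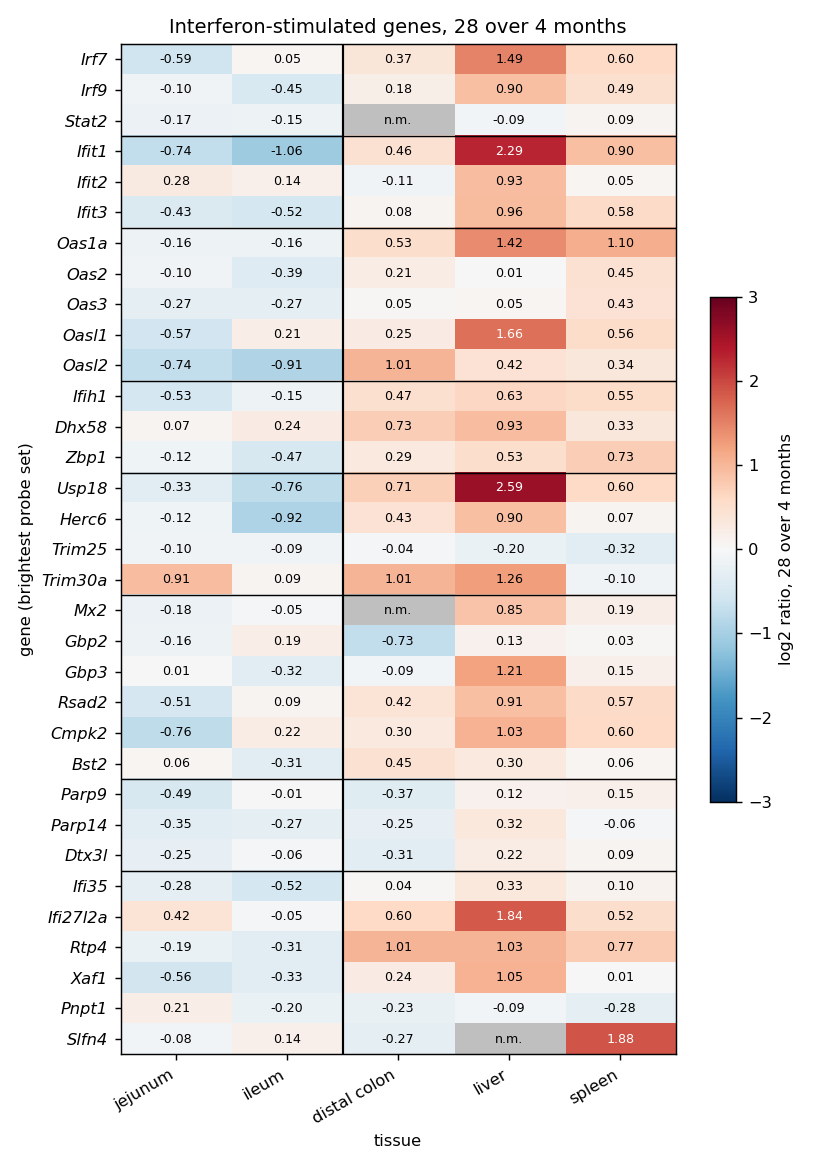
Log2 ratio of 28 over 4 months for 33 interferon-stimulated genes (rows, grouped by role) in 5 tissues (columns), 1 array per tissue and age; red is higher and blue lower at 28 months, and grey cells (n.m.) were under the floor at both ages. The 2 columns left of the vertical line, jejunum and ileum, are mostly blue, and the liver column reaches 2.59 for Usp18.

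**Figure D2:**
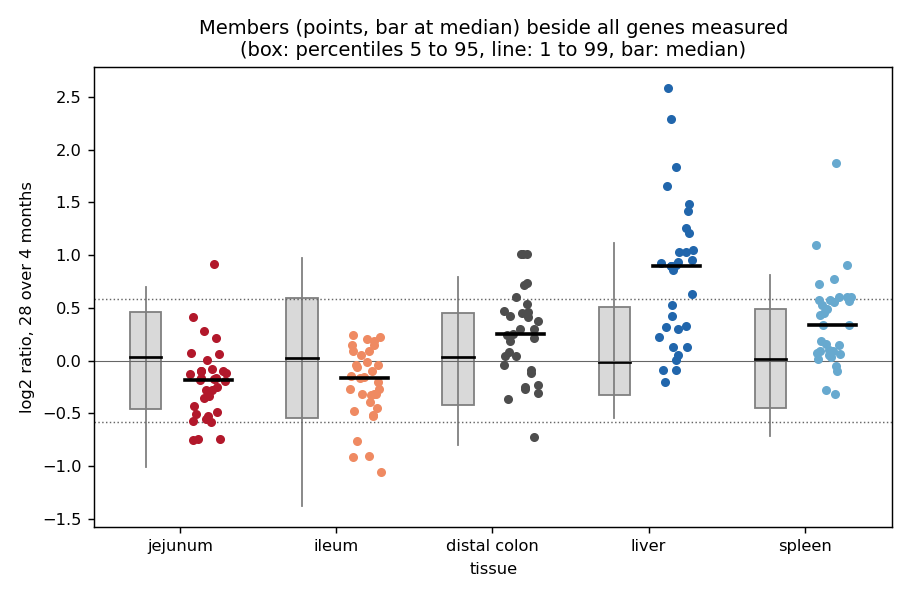
Log2 ratios of 28 over 4 months (vertical axis) of the measured members (points, black bar at the median) beside all genes measured in the same tissue (grey box, percentiles 5 to 95; line, percentiles 1 to 99; bar, median). Dotted lines mark 1.5-fold; the members' medians run from -0.18 in jejunum to 0.90 in liver while the medians of all genes stay near 0.

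Differences past 1.5-fold were few outside the liver. In jejunum 4 members were lower (3.04% of genes) and 1 was higher (2.01%), and in ileum 4 were lower (4.17%) and 0 were higher (5.22%). In distal colon 6 were higher (2.57%) and 1 was lower (2.35%), and in spleen 8 were higher (3.19%) and 0 were lower (1.95%). In liver 19 of 32 were higher (4% of genes) and 0 were lower (0.8%). At 2-fold, liver had 11 members higher (1.29% of genes) and 0 lower (0.167%), distal colon 3 higher (0.51%) and 0 lower (0.526%), and spleen 2 higher (0.528%) and 0 lower (0.411%). Ileum had 1 lower (1.66%) and 0 higher (0.888%) at 2-fold, and jejunum 0 lower (1.02%) and 0 higher (0.252%). Ifit1 and Oasl2 were 1.5-fold lower in both small intestinal segments, 2 of 30 members (0.669% of genes). Cmpk2, Ifit1, Irf7, Oas1a, Rtp4 and Usp18 were 1.5-fold higher in both liver and spleen, 6 of 30 (0.407%).

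Among the IFIT proteins, which bind viral RNA and hold back its translation, Ifit1 showed the division most plainly. Its signal at 4 and 28 months was 1117 and 669 units in jejunum, 1163 and 559 in ileum, 268 and 369.6 in distal colon, 148 and 725 in liver and 165 and 309 in spleen. At 4 months both small intestinal arrays stood above the other 3 tissues, and at 28 months liver was the highest of the 5. Ifit1 was 1.67-fold lower in jejunum and 2.08-fold lower in ileum, and 4.90-fold higher in liver and 1.87-fold higher in spleen. It ranked 17 from the top among 12001 genes in liver and 187 from the bottom among 12504 in ileum. Ifit3 followed with 357 and 265 units in jejunum, 412 and 287 in ileum and 315 and 611 in liver, short of 1.5-fold in both segments and 1.94-fold higher in liver. Ifit2 did not follow in the gut, with ratios of 0.28 in jejunum, 0.14 in ileum and -0.11 in distal colon, and was 1.91-fold higher in liver.

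The 2-5-oligoadenylate synthetases and their relatives sense double-stranded RNA and, in the case of the true synthetases, switch on an RNA-degrading enzyme. Oasl2, an Oas-like protein, had 518 and 310.3 units in jejunum, 547 and 292 in ileum, 98.9 and 223 in distal colon, 61.8 and 148 in liver and 75.3 and 140.0 in spleen. The small intestine held the only arrays of 4 months above the floor for this gene, and by 28 months all 5 tissues were above it. Oasl2 was 1.67-fold lower in jejunum and 1.87-fold lower in ileum, and at least 2.02-fold higher in distal colon. Oas1a had 1188 and 1061 units in jejunum, 1359.8 and 1216 in ileum, 1898 and 2749 in distal colon, 380.4 and 1018 in liver and 419.9 and 898 in spleen, and was 2.68-fold higher in liver and 2.14-fold higher in spleen while its ratio was -0.16 in both small intestinal segments. Oasl1, which restrains translation of Irf7, had 1237 and 830.3 units in jejunum, 865 and 998 in ileum, 341 and 405 in distal colon, 169.5 and 535 in liver and 107 and 163 in spleen. It was 3.16-fold higher in liver, and its ratios of -0.57 in jejunum and 0.21 in ileum had opposite signs. Oas2 and Oas3 stayed within 1.5-fold in all 5 tissues, with ratios from -0.39 for Oas2 in ileum to 0.45 for Oas2 in spleen.

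Usp18 removes the ubiquitin-like protein Isg15 from its targets and also silences the type I receptor, and Herc6 is the mouse ligase that attaches Isg15. The Usp18 signal was 280.0 and 222 units in jejunum, 245 and 145 in ileum, 69.6 and 182 in distal colon, 176 and 1059 in liver and 407 and 616 in spleen. The liver array of 4 months lay below those of jejunum and ileum, and that of 28 months was the highest of the 10. Usp18 was 6.01-fold higher in liver, rank 15 from the top among 12001 genes, and 1.69-fold lower in ileum, with a ratio of -0.33 in jejunum. It was at least 1.64-fold higher in distal colon, where the 4-month array was under the floor. Herc6 had 196 and 180.0 units in jejunum, 226 and 119.8 in ileum, 115 and 155 in distal colon, 364 and 678 in liver and 586 and 617 in spleen, and was 1.89-fold lower in ileum and 1.86-fold higher in liver. A further Herc6 probe set, 1431095_a_at, gave -0.54 in ileum and only 0.17 in liver, so the size of the liver ratio depends on the probe set.

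The transcription factor Irf7, the amplifier of type I interferon production, had 573 and 382 units in jejunum, 623 and 647 in ileum, 263 and 340.1 in distal colon, 206 and 579 in liver and 229.7 and 348 in spleen. Both small intestinal arrays were the highest at 4 months, and at 28 months the ileum had kept its level while the jejunum had not. Irf7 had a ratio of -0.59 in jejunum, just past the 1.5-fold threshold, and was 2.80-fold higher in liver and 1.52-fold higher in spleen. Irf9, the DNA-binding part of the complex, was 1.87-fold higher in liver and had a ratio of -0.45 in ileum. Stat2 itself stayed between -0.17 and 0.09 in the 4 tissues where it was measured.

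**Figure D3:**
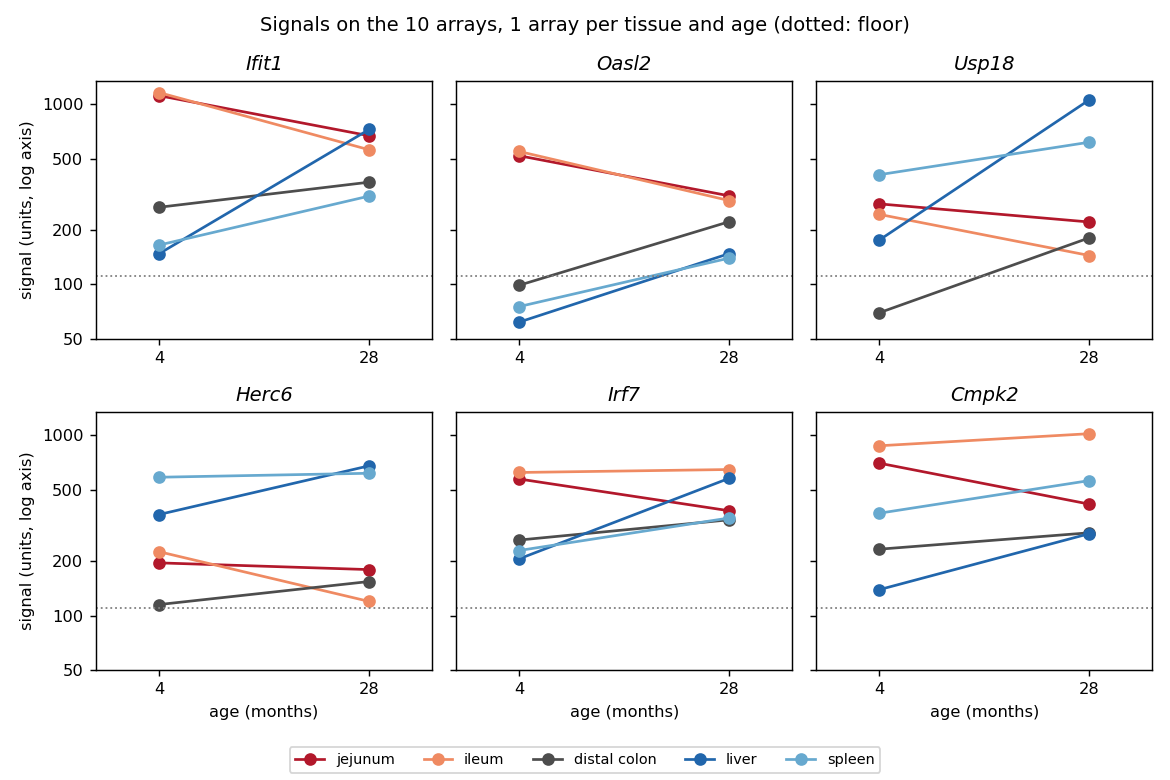
Signals (units, log axis) of the brightest probe set at 4 and 28 months for the 6 members that passed 1.5-fold in opposite directions between a small intestinal segment and another tissue. Each line joins the 2 arrays of a tissue and the dotted line is the floor of 111 units. Liver lines slope up in all 6 panels, and at least 1 of the jejunum and ileum lines slopes down in each.

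Cmpk2, a mitochondrial nucleotide kinase, and its genomic neighbour Rsad2, which makes a chain-terminating nucleotide, had like ratios within the gut. Cmpk2 had 702 and 415 units in jejunum, 876 and 1023 in ileum, 234 and 288 in distal colon, 139 and 285 in liver and 370.0 and 562 in spleen. It was 1.69-fold lower in jejunum and had a ratio of 0.22 in ileum, against 2.05-fold higher in liver. A further Cmpk2 probe set, 1422095_a_at, gave -0.22 in jejunum and -0.04 in liver, so neither call was seen by it. Its signals were close to the floor, at 134 and 115 units in jejunum and 114 and 98.6 in liver. Rsad2 was 1.88-fold higher in liver and had -0.51 in jejunum and 0.09 in ileum, and its spleen signal was 8809 and 13108 units at the 2 ages. By their brightest probe sets, 6 members passed 1.5-fold in opposite directions between a small intestinal segment and another tissue, or 6 of 30 against 1.04% of genes. They were Ifit1, Oasl2, Usp18, Herc6, Irf7 and Cmpk2.

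The guanylate-binding proteins, GTPases that attack vacuoles holding microbes, did not share the pattern. Gbp3 had 319 and 321 units in jejunum, 305 and 245 in ileum, 356 and 335 in distal colon, 209 and 482 in liver and 1863 and 2072 in spleen, and was 2.31-fold higher in liver and within 1.5-fold elsewhere. Gbp2 was 1.66-fold lower in distal colon, at 2090.3 and 1262 units, the only call of a lower level outside the small intestine among the members, and a further probe set gave 1.57-fold. Mx2, a dynamin-like GTPase, was 1.81-fold higher in liver, at 159.8 and 289 units, and under the floor at both ages in distal colon. Bst2, or tetherin, which holds budding virus to the cell surface, stayed within 1.5-fold in all 5 tissues.

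Of the sensors, Ifih1, which detects long double-stranded RNA, was 1.54-fold higher in liver, with ratios of 0.55 in spleen and 0.47 in distal colon against -0.53 in jejunum and -0.15 in ileum. Dhx58, its helicase partner, was 1.90-fold higher in liver and at least 1.66-fold higher in distal colon, and lay slightly above 0 in jejunum and ileum. Zbp1, a sensor of left-handed nucleic acid, was 1.66-fold higher in spleen by its brightest probe set. That probe set gave ratios of -0.12 in jejunum, -0.47 in ileum and 0.53 in liver. A further one, 1419604_at, gave 0.03 in jejunum, 0.13 in ileum, 0.19 in spleen and 0.81 in liver. The sign in the small intestine and the tissue called thus depend on the probe set.

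Rtp4, a receptor transporter induced by interferon, was 1.5-fold or more higher in each of the 3 tissues outside the small intestine. It had 900.0 and 787 units in jejunum, 1067 and 859 in ileum, 550.4 and 1111 in distal colon, 1169 and 2381 in liver and 886 and 1510.3 in spleen, or 2.02-fold, 2.04-fold and 1.71-fold higher in distal colon, liver and spleen and -0.19 and -0.31 in jejunum and ileum. Ifi27l2a, a small mitochondrial protein, had 1059 and 1413 units in jejunum, 1051 and 1019 in ileum, 794 and 1207 in distal colon, 248 and 885 in liver and 3654 and 5250.1 in spleen. It was 3.57-fold higher in liver and 1.52-fold higher in distal colon, and in jejunum it lay above 0. Ifi35 had ratios of -0.28 in jejunum and -0.52 in ileum from the brightest of 3 probe sets. The other 2 gave -0.60 and -0.69 in ileum, both past 1.5-fold.

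Trim30a, a TRIM protein that dampens Toll-like receptor signals, differed from the other members. It had 195 and 369 units in jejunum, 246 and 261 in ileum, 203 and 409 in distal colon, 188 and 449.7 in liver and 2393 and 2238 in spleen. It was 1.89-fold higher in jejunum, 2.01-fold in distal colon and 2.40-fold in liver, and stayed within 1.5-fold in ileum and in spleen, where it was brightest. Its second probe set gave 0.55 in jejunum and -0.39 in ileum. Slfn4, a Schlafen protein of myeloid cells, had 138 and 506 units in spleen, 3.67-fold higher and rank 10 from the top among 11925 genes. Its other signals were 117 and 93 units in jejunum, 128 and 141 in ileum, 817 and 678 in distal colon and, under the floor at both ages, 48.8 and 97.2 in liver. Parp9, Parp14 and Dtx3l, which work together in ADP-ribosylation, and the ligase Trim25 stayed within 1.5-fold in all 5 tissues. The 3 former lay below 0 in all 3 gut segments and above 0 in liver.

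Xaf1, which promotes cell death by opposing the inhibitor XIAP, was read by 2 probe sets that disagreed. By the brighter one, 1443698_at, its signal was 499 and 339 units in jejunum, 425 and 338 in ileum, 389.8 and 460.1 in distal colon, 251 and 518 in liver and 508 and 512 in spleen, or 2.07-fold higher in liver, with ratios of -0.56 in jejunum and -0.33 in ileum. By the other, 1443621_at, it was 51.1 and 353 units in jejunum, 52 and 296 in ileum, 46.7 and 418 in distal colon, 50.9 and 543 in liver and 55.9 and 642 in spleen. All 5 arrays of 4 months were under the floor by that probe set and all 5 of 28 months were well above it, with no overlap, and the folds were at least 3.19-fold, at least 2.68-fold, at least 3.77-fold, at least 4.90-fold and at least 5.80-fold higher in the same order. The ratios below 0 that the brighter probe set gave in the small intestine were thus above 0 by the dimmer one.

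Pnpt1, a mitochondrial RNA-processing enzyme, was read by 3 probe sets. The brightest, 1452676_a_at, gave 826 and 955 units in jejunum, 749 and 652 in ileum, 679.6 and 579 in distal colon, 958 and 902 in liver and 988 and 812 in spleen, with ratios from -0.28 to 0.21 and no call. 1452677_at gave 161 and 264 units in jejunum, 141 and 244 in ileum, 137 and 228 in distal colon, 159 and 256 in liver and 163 and 269 in spleen. Its 5 ratios lay between 0.69 and 0.79, with an SD of 0.04 over tissues, and the 2 ages did not overlap. 1444288_at was under the floor on all 10 arrays, at 51.3 to 96.4 units. Of 24425 probe sets that name 1 gene and were above the floor on any array, only 5 were 1.5-fold or more higher in all 5 tissues, or 0.0205%, and those of Xaf1 and Pnpt1 are 2 of these 5. For 4 of the 5 the gene had a further measured probe set, and in 0 of the 4 did it pass 1.5-fold in all 5 tissues as well. The animals behind the pools were outbred and no genotype is given, and the part of sequence differences between the pools in these signals was not tested.

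**Figure D4:**
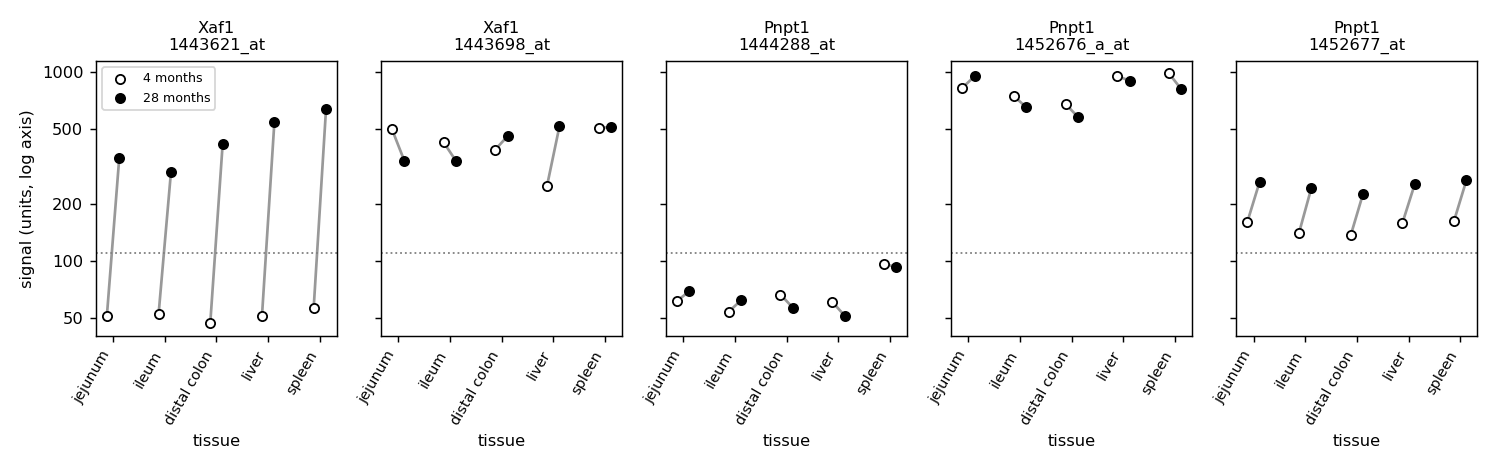
Signals (units, log axis) of each probe set of Xaf1 and Pnpt1 in 5 tissues at 4 months (open circles) and 28 months (filled circles), with the floor of 111 units dotted. 1443621_at of Xaf1 and 1452677_at of Pnpt1 are higher at 28 months in every tissue, by 1.61-fold to 1.73-fold for the latter, and the brighter probe set of each gene is not.

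The difference between small intestine and the other tissues was fitted with limma on the 5 ratios of each of 10317 genes measured in all tissues, with tissues standing in for replicates. The spread in that fit is between tissues and not between animals, tissues of the same age may share mice, and the grouping was proposed with earlier results of these arrays in view. After Benjamini-Hochberg adjustment over all genes limma called 0 genes at an adjusted p of 0.05, and 1067 genes had an unadjusted p under 0.05 (10.3%). Of the 30 members, 19 did, all of them lower in the small intestine, a direction taken by 4.66% of genes at that p. The members and the grouping were chosen with earlier results of these arrays known, so this count is no test of the members as a set. The median difference of the members was -0.80 on the log2 scale, and 27 of 30 lay below 0. The sizes, as difference ± SE, were -2.12 ± 0.47 for Ifit1 (adjusted p = 0.302, limma), -1.85 ± 0.54 for Usp18 (adjusted p = 0.375) and -1.41 ± 0.22 for Oasl2 (adjusted p = 0.162). Rtp4 had the smallest adjusted p of the members, 0.0856 by limma, at -1.19 ± 0.16. Trim25, Gbp2 and Pnpt1 lay above 0, at 0.09 ± 0.15, 0.20 ± 0.27 and 0.20 ± 0.17.

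**Figure D5:**
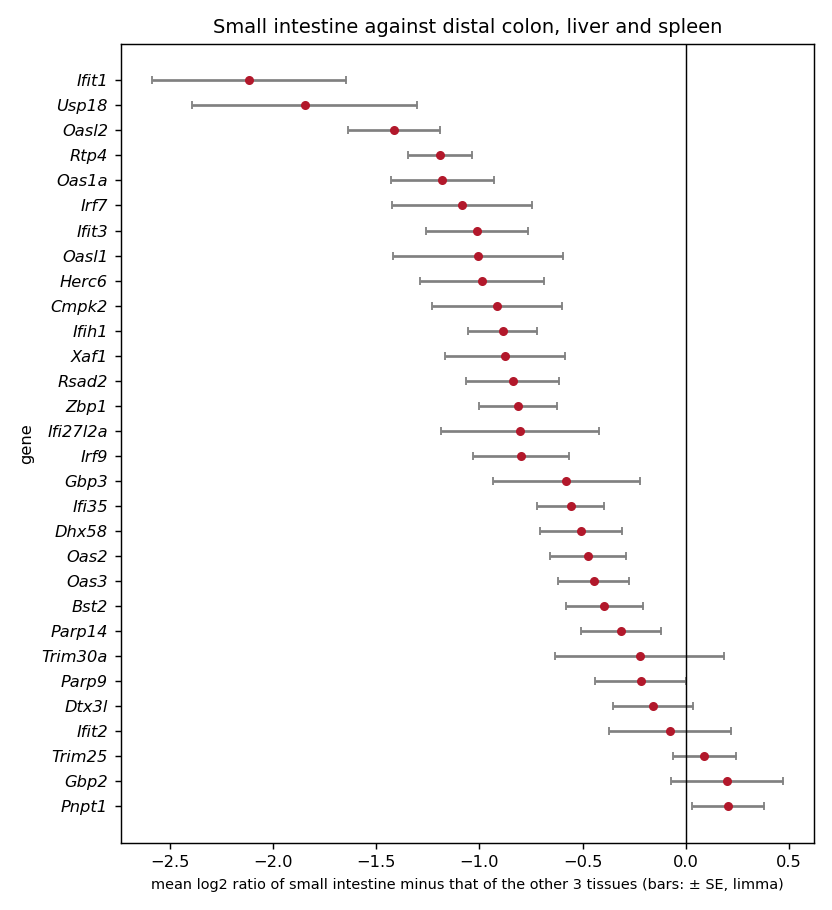
Mean log2 ratio of jejunum and ileum minus that of distal colon, liver and spleen (horizontal axis) for the 30 members measured in all 5 tissues, with bars of ± SE from limma over 5 tissues. Ifit1 lies lowest at -2.12, and 27 of the 30 points lie left of 0.

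Jejunum and ileum were alike at 4 months and less so at 28. At 4 months 0 of 33 members differed 1.5-fold or more between them, against 4.55% of 12459 genes, and at 28 months 5 did, Cmpk2, Herc6, Irf7, Parp9 and Usp18. That share, 15.2%, is close to the 15.4% of 12465 genes. Cmpk2, Irf7, Oasl1, Rsad2 and Ifih1 had the more negative ratio in jejunum, and Usp18, Herc6, Irf9, Zbp1, Ifi35 and Ifit1 in ileum. The likeness at 4 months is that of jejunum and the ileum array with proximal markers.

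The range of a member over the 5 tissues was narrower at 28 months in 17 of 30, or 56.7%, against 61.6% of genes. Narrowing was thus no more frequent among the members than among all genes. Ifit1 had the largest narrowing of the 30, from 2.97 at 4 months to 1.23 at 28 months on the log2 scale.

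Upstream of these genes, interferons themselves were hardly seen. Of 19 listed interferon genes 9 had a probe set, and all 9 were under the floor in jejunum at both ages. Ifna1 was measured in the other 4 tissues, at 205 and 147 units in liver, and Ifng in spleen, at 65.5 and 125 units, the first of these under the floor. The receptors and kinases were all below 0 in jejunum, 9 of 9 (44.1% of all genes), with a median of -0.35. The 1 call there was Ifnlr1, the epithelial type III receptor chain, 1.52-fold lower (3.04%). In ileum 7 of 9 lay below 0 (46.1%), and 1 was called lower (4.17%), Ifnar2, 1.78-fold, at 1228 and 688 units. In liver 5 of 8 lay above 0 (46.7%) with a median of 0.17 and 0 calls. In distal colon 7 of 9 lay below 0 (44.6%), with a median of -0.05, and in spleen 7 of 8 (48.1%), with a median of -0.14. Both had 0 calls, while the members there lay mostly above 0. Among 14 genes of sensing and induction, 0 were called in jejunum, ileum, distal colon or spleen. In liver 1 was called higher (4% of all genes), Irf8, 1.61-fold. Of the negative regulators, Socs3, which blocks the kinases of several cytokine receptors, was 2.31-fold higher in liver and 2.29-fold higher in spleen, and 1.73-fold, 1.66-fold and 2.61-fold lower in jejunum, ileum and distal colon. The only other call in that list was Samhd1, which degrades nucleotides, 1.59-fold lower in ileum.

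A further list of 27 interferon-induced genes outside the 35, of which 26 had a probe set, shared the pattern mainly in liver and distal colon. In jejunum and ileum their medians lay close to 0. In liver 18 of 23 measured genes lay above 0 (46.7% of all genes) with a median of 0.38. There 7 were higher (4% of all genes) and 0 lower by 1.5-fold, led by Samd9l at 2.22-fold. In distal colon 16 of 22 lay above 0 (55.4%) with a median of 0.14, and 4 were higher (2.57%), with Isg20, an RNA exonuclease, at 1.94-fold. In jejunum 11 of 24 lay below 0 (44.1%), and the median was 0.04, against 0.03 for all genes. There 3 were lower (3.04%) and 0 higher, and Trim34a was 2.22-fold lower and Ddx60 1.71-fold lower. In ileum 13 of 24 lay below 0 (46.1%), and the median was -0.02, with 2 lower (4.17%) and 2 higher (5.22%). In spleen 14 of 24 lay above 0 (51.9%) with a median of 0.06. There 3 were higher (3.19%) and 1 lower (1.95%), with Lgals3bp 1.71-fold higher and Trim34a 1.55-fold lower.

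Genes driven mainly by interferon gamma were not higher along with the members in liver. The 8 measured immunity-related and guanylate-binding GTPases had a median of 0.01 there with 0 calls (4% of all genes were higher and 0.8% lower). The chemokine genes Cxcl9 and Cxcl10 had ratios of -0.35 and -0.50. In spleen 7 of the 8 GTPases lay above 0 (51.9% of all genes) with a median of 0.26. Cxcl9 was 1.55-fold higher there, while Cxcl10 and Ciita, the regulator of MHC class II, had ratios of -0.25 and -0.16. In the gut the GTPases lay below 0 in 3 of 8 cases in jejunum (44.1%), 5 of 8 in ileum (46.1%) and 4 of 8 in distal colon (44.6%). Iigp1 was 1.68-fold lower in ileum and 1.86-fold lower in distal colon. Ido1 was 2.01-fold lower in jejunum and at least 1.53-fold lower in distal colon. Cxcl9 was 2.04-fold lower in ileum and 1.63-fold higher in distal colon. Genes of MHC class I presentation lay above 0 in 11 of 11 cases in liver (46.7% of all genes), with a median of 0.42. In ileum they lay below 0 in 8 of 10 (46.1%), and the immunoproteasome subunit Psmb8 was 1.79-fold lower.

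Markers of cell types also differed with age in these tissues, and in pooled tissue RNA fewer cells of a type and less RNA per cell cannot be told apart. In liver, 9 of 10 macrophage markers were 1.5-fold or more higher (4% of all genes), with C1qb at 2.98-fold. Their summed signal was 12922 and 23359 units at 4 and 28 months. The 8 measured granulocyte markers were all above 0 there (46.7%), 4 past 1.5-fold (4%). Of the 8, 5 were under the floor at 4 months and 0 at 28. Their sum was 794 and 3269.9 units, while the hepatocyte sum was 257088 and 252920.0. In distal colon 5 of 8 B cell markers and 3 of 6 T cell markers were higher (2.57% of all genes), with sums of 2024 and 4032 and of 1139 and 2088 units. Plasma cell markers lay above 0 there in 8 of 8 cases (55.4%), 3 of them past 1.5-fold (2.57%), with a sum of 29796 and 35658 units. Smooth muscle markers lay below 0 there in 8 of 8 (44.6%), 2 of them past 1.5-fold (2.35%), with a sum of 101933 and 71826. In spleen 8 of 8 granulocyte markers were higher (3.19% of all genes), with a sum of 16409 and 42409 units. There 9 of 9 B cell markers lay below 0 (48.1%), 2 of them past 1.5-fold (1.95%). Of the listed plasmacytoid dendritic cell markers 7 of 7 lay below 0 in spleen (48.1%), 3 of them past 1.5-fold (1.95%), with Siglech 1.56-fold lower. In liver 3 of 4 measured markers of that list lay above 0 (46.7%). Klk1, 1 of the 3, was brighter in distal colon, at 17049 and 23932 units, than in spleen, at 1729 and 531. Whether that list reads these cells alone was not tested. The part of any of these cell types in the members' ratios was not tested.

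In the small intestine the members were mostly lower, and cell type markers differed in both directions. In jejunum 5 of 10 absorptive enterocyte markers were lower (3.04% of all genes), with a sum of 159674 and 112478 units. There 9 of 9 measured macrophage markers lay above 0 (55.9%), 2 of them past 1.5-fold (2.01%). Plasma cell markers lay above 0 in 8 of 8 cases (55.9%), 4 of them past 1.5-fold (2.01%), with Pou2af1 2.54-fold higher. In ileum all 9 proximal small intestine markers were lower (4.17% of all genes), with 3 of 9 under the floor at 28 months. There 7 of 8 smooth muscle markers were higher (5.22%), with a sum of 24906 and 40978 units. Of 6 cytotoxic lymphocyte markers 3 were lower (4.17%), with Gzmb 2.60-fold lower and a sum of 3386 and 1721 units. The ileum ratios rest on the single 4-month array with proximal markers, and the median difference of the members between small intestine and the other tissues was -0.59 without the ileum ratio, against -0.80 with it. No ileum count without that array can be had, and the part of sampling position was not tested. The jejunum ratios do not use that array, and 26 of 33 members lay below 0 there. In jejunum, however, 8 of 9 proximal small intestine markers also lay below 0 (44.1%), 3 of them past 1.5-fold (3.04%), with Lct 3.51-fold lower. The 3 intestinal arrays of 28 months are also those whose protocol text describes 2 diets, so in the gut age and anything else that goes with that text cannot be told apart. No liver or spleen ratio uses such an array, so the same holds for the difference of small intestine from liver and spleen. Distal colon shares that text with the small intestine.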

How the data were processed

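RNA pools of 5 tissues at 2 ages were read on 10 Affymetrix Mouse Genome arrays, 1 per tissue and age, after labelling with a 3' in vitro transcription kit, per the labels' protocols. The authors deposited 1 log2 signal for each probe set and array, from 2.71 to 14.8, on a like scale across arrays. The submitters' processing notes name MAS5 and affy without a version or role, with the method otherwise not given in the sources used here. Base 2 was inferred from that range.

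Here values were taken out of the log, scaled to a trimmed mean of 500 (2% trimmed at each end; factors 2.42 to 2.57), and raised to a floor at the median of all signals, which 48.9% to 50.9% of probe sets exceeded per array. Gene names came from the platform annotation, in which 34958 probe sets name 1 gene, 932 several, and 9211 are unnamed. Members were matched by symbol. All members could be named, with all 10 signals for those lower in both small intestinal segments by 1.5-fold, changed 2-fold in any tissue, or changed 1.5-fold in opposite directions, and for the probe sets of Xaf1 and Pnpt1. Of the other lists up to 4 genes with the largest ratios were named. The members, the lists, the 1.5-fold threshold and the grouping of tissues were chosen with earlier results of these data known. limma 3.58.1 in R 4.3.3 fitted the ratios. The 1.5-fold call and the limma fit were also run on simulated data with independent noise. Those data held no differences between pools and no shared mice, so such runs could only check the steps as coded. Alternatives were other floors, no floor with 16 units added, equal medians, quantile normalisation, lowess (span 0.3), the median over probe sets, probe sets of single transcripts, 2-fold, and each tissue left out. Python 3.11.15, numpy 2.4.6, pandas 2.3.3 and statsmodels 0.14.6 were used. Promoters and gene symbols were those of RefSeq.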

Additional observations from a re-analysis of the deposited data

Results flagged for a closer look

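For 6 members the ratio of 28 over 4 months passed 1.5-fold in one direction in a small intestinal segment and in the other direction in another tissue. Each such pair rests on 1 array per tissue and age, and the difference within a pair was not tested; the limma fit over tissues gave none of the 6 an adjusted p under 0.05. The log2 ratios were -1.06 in ileum and 2.29 in liver for Ifit1, -0.76 in ileum and 2.59 in liver for Usp18, and -0.92 in ileum and 0.90 in liver for Herc6. They were -0.59 in jejunum and 1.49 in liver for Irf7, and -0.76 in jejunum and 1.03 in liver for Cmpk2. For Oasl2 they were -0.91 in ileum and at least 1.01 in distal colon. These are ratios of the brightest probe sets, and for Herc6 and Cmpk2 a further probe set passed 1.5-fold in neither direction.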

How the results depend on the processing

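The medians of the members kept their sign in all 5 tissues under every floor, scaling and probe set choice tried. In distal colon, however, the median lay under that of all genes with the floor at percentile 75. The direction of the 33 ratios past 1.5-fold of the 14 members with full values was kept in all settings. Of 241 alternative values 24 fell short of 1.5-fold, 12 of them under the higher floor. That floor, at percentile 75, left fewer members measured and moved most counts. Under it 1 was lower and 0 higher in jejunum (17 of 20 below 0), and 1 was lower in ileum (14 of 19 below 0). In distal colon 2 were higher and 7 of 15 lay below 0, with a median of 0.0062 against 0.0234 for all genes. In liver 8 were higher (median 0.32), and in spleen 2 (median 0.10). The members' difference between small intestine and the other tissues was then -0.40, with 11 of 14 below 0 and 6 genes called by limma. At 2-fold, 0 were lower and 0 higher in jejunum, 1 was lower in ileum, 0 were lower and 3 higher in distal colon, 11 were higher in liver and 2 in spleen. Without probe sets that can read several transcripts 1 was lower in jejunum, 1 was higher in ileum, 2 lay below 0 in spleen, and the difference was -0.64. With equal medians 5 were higher in spleen. Taking each gene's median over its probe sets, the liver median was 0.76 and the difference -0.63. The difference was -0.66 without jejunum, -0.59 without ileum and -0.58 without liver. limma called 26 genes without jejunum, 2 without ileum, 3 with the floor at percentile 25, 6 with it at percentile 75 as above, and 0 in the other settings. Causes of these shifts were not tested beyond the fewer members measured. No paired analysis was possible by replicate number because each group holds 1 array and the labels give no such numbers. The limma fit uses ratios, which pair the 2 ages within each tissue. Precision is limited by 1 array per group, and for Oasl2, Oas3, Mx2, Stat2 and Slfn4 by signals close to the floor.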

Other observations

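The tissue with the highest signal was the same at both ages for 18 of the 30 members measured in all tissues and another for 12, or 40%, against 25.4% of 10317 genes. Liver was the highest for 5 members at 4 months (25.4% of genes) and for 11 at 28 months (23.1%), and spleen for 13 (33.5%) and 10 (34.7%). Jejunum was the highest for 5 (9.67%) and 4 (12.2%), ileum for 6 (13.8%) and 3 (11.4%), and distal colon for 1 (17.6%) and 2 (18.6%). For Ifit1 the range over the 5 tissues was narrower at 28 months, and so it was for Oasl2, at 2.31 and 1.15 on the log2 scale at the 2 ages. For Usp18 it was wider, at 1.88 and 2.87.

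Other probe sets of a member did not always share the direction of the brightest. They did so in 12 of 14 cases in jejunum, 9 of 15 in ileum, 9 of 12 in distal colon, 11 of 15 in liver and 13 of 16 in spleen. For Trim25, 1426415_a_at gave -0.78 in jejunum, at 377 and 219 units, where the brightest gave -0.10. For Rsad2 all 3 probe sets lay below 0 in jejunum and above 0 in ileum, liver and spleen, with 1421009_at at 2.30-fold higher in liver.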
